A study of Mus musculus with 8 samples.

Results

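The guanylate-binding proteins (Gbp) are large GTPases that cells make in response to interferon. The 9 genes described were Gbp2, Gbp2b, Gbp3, Gbp5 and Gbp7, which lie together on chromosome 3, and Gbp4, Gbp6, Gbp8 and Gbp9, which lie together on chromosome 5. They were selected from the gene symbols of the deposited table, with the authors' own fold changes and p-values for LmnaMyeKO against wt CD11b+Ly6C+ cells in view. Those values are not used here. The 9 genes are 9 of the 23084 genes of the table.

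RNA was sequenced from splenic myeloid cells in a study of how loss of lamin A/C, a structural protein of the nuclear lamina encoded by Lmna, affects myeloid differentiation. The 8 samples form 4 groups of 2, namely wt CD11b+Ly6C+, wt CD11b+Ly6G+, LmnaMyeKO CD11b+Ly6C+ and LmnaMyeKO CD11b+Ly6G+ cells. CD11b is a surface integrin of myeloid cells, Ly6C marks monocytic cells and Ly6G marks granulocytic cells. The subset of each sample was read from its title, because the label for cell markers names CD11b+Ly6C+ throughout. All 4 groups were labelled C57BL/6, aged 6 to 8 weeks, with spleen as the tissue. LmnaMyeKO mice carried floxed Lmna alleles and LysM-Cre, a Cre recombinase under control of the lysozyme 2 gene, so that deletion was limited to cells of the myeloid lineage that express it. Whether the wt mice carried a floxed allele or Cre is not given in the sources used here, nor is whether both samples of a group came from separate mice. The study concerned tumour-associated myeloid cells, and its text does not state whether the mice of the sequenced samples bore tumours.

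Each gene had 1 usable value, the authors' mean signal, which is a count normalized for sequencing depth and averaged over samples. Which of the 8 samples entered the mean is not stated. The study's methods state reads per sample only as a range, and the mean has no SD and no n, so the genotypes and subsets were not compared and no difference between genes was tested. Because a long transcript collects more reads than a short one, levels of different genes were compared per kilobase (kb) of exon.

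Interferon-γ binds its receptor and activates the kinases Jak1 and Jak2, and the transcription factor Irf1, made in response, helps to switch on the Gbp genes. Gbp proteins bind guanine nucleotides, assemble on vacuoles that hold parasites or bacteria and on bacteria in the cytosol, and promote the opening of these compartments and the activation of inflammasomes, which makes them prominent in macrophages and other myeloid cells.

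All 9 genes were expressed above the median gene of the table. The median member, Gbp8, stood at 241 units of mean signal per kb, against a median of 18.8 and an upper quartile of 143 over the 23004 genes with a known length. By this level 5 members were above the upper quartile (Gbp2, Gbp9, Gbp7, Gbp3 and Gbp8), and the other 4 lay between the percentiles 67.5 and 71.9. Together the 9 genes held 0.0269% of the mean signal per kb summed over the table. In sorted cells measured in bulk, fewer cells of a type and less RNA per cell cannot be told apart, and a mean over samples adds to this that a level common to all of them cannot be told from a high level in some.

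Gbp2, which coats parasite vacuoles and bacteria in infected cells, had the highest level of the family. Its mean signal was 2773, or 1102 per kb of exon, a level exceeded by 4.45% of the genes. This was 2.75 times the level of the next member, and Gbp2 alone held 39.3% of the summed level of the 9 genes. It remained the highest member when the longest transcript, the median transcript or no length was used in place of the summed exons, but without division by length it stood 1.25 times above the next member.

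Gbp2b, the gene formerly named Gbp1, is the neighbour of Gbp2 and had the lowest mean signal of the 9 genes, 329.9. Per kb of exon its level was 117, which is 6.20 times the median of the table and at percentile 71.9. Gbp2 stood 9.43 times higher. On the scale of summed exons Gbp2b was 6 of 9 in order, since Gbp4, Gbp5 and Gbp6 have several transcripts and long summed exons, whereas Gbp2b has 1 annotated transcript of 2823 bases. With the longest transcript, the median transcript or no length as the divisor it was 9 of 9, although with the longest transcript Gbp2b (117 per kb) and Gbp6 (118 per kb) were too close to be ordered. By summed exons the level of Gbp5, 116 per kb, was too close to that of Gbp2b to be ordered without an error. Gbp5 stood above Gbp2b under each other divisor. It was at 206 against 117 per kb with the longest transcript, and 7 of 9 against 9 of 9 with the median transcript. Without division by length its mean signal was 772 against 329.9.

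Of the other chromosome 3 genes, Gbp7, which has been linked to oxidative defence against bacteria, had a mean signal of 2222 and 396 per kb. Gbp3 followed with a mean signal of 839.2 and 257 per kb. Gbp5, which has been linked to activation of the Nlrp3 inflammasome, had a mean signal of 772 over summed exons of 6637 bases, the longest of the chromosome 3 members. Per kb of summed exons the levels in this cluster thus ran over 9.48-fold up to Gbp2. Gbp5 and Gbp2b, at the lower end, were too close to be ordered on that scale.

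On chromosome 5, Gbp9 was the highest with a mean signal of 2071 and 400.3 per kb. This was close to the level of Gbp7. Gbp8 had a mean signal of 830.1, Gbp4 708.2 and Gbp6 499.1. Per kb of summed exons, Gbp4 stood at 94.5 and Gbp6 at 83.8, the lowest levels of the 9 genes. On that scale the range within the cluster was 4.77-fold, narrower than on chromosome 3, where Gbp2 set the upper end. With the longest transcript as the divisor Gbp4 stood at 156 per kb, 7 of 9 in order, and Gbp2b and Gbp6 were lowest.

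Set side by side, the 5 chromosome 3 genes held 70.8% of the summed level of the family (1988 per kb) and the 4 chromosome 5 genes 29.2% (819.7 per kb). The median member was 257 per kb on chromosome 3 and 168 per kb on chromosome 5. Gbp2 carried most of this difference. Without Gbp2 alone the chromosome 3 sum was 886.1 per kb, 1.08 times that of the complete chromosome 5 cluster, an alternative chosen after seeing the data. Without both Gbp2 and Gbp9, the highest gene of each cluster, the sums were 886.1 and 419.4 per kb. Genes are not replicates, and the clusters differ in their number of genes, so this order is a description of the mean signal and was not tested.

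**Figure D1:**
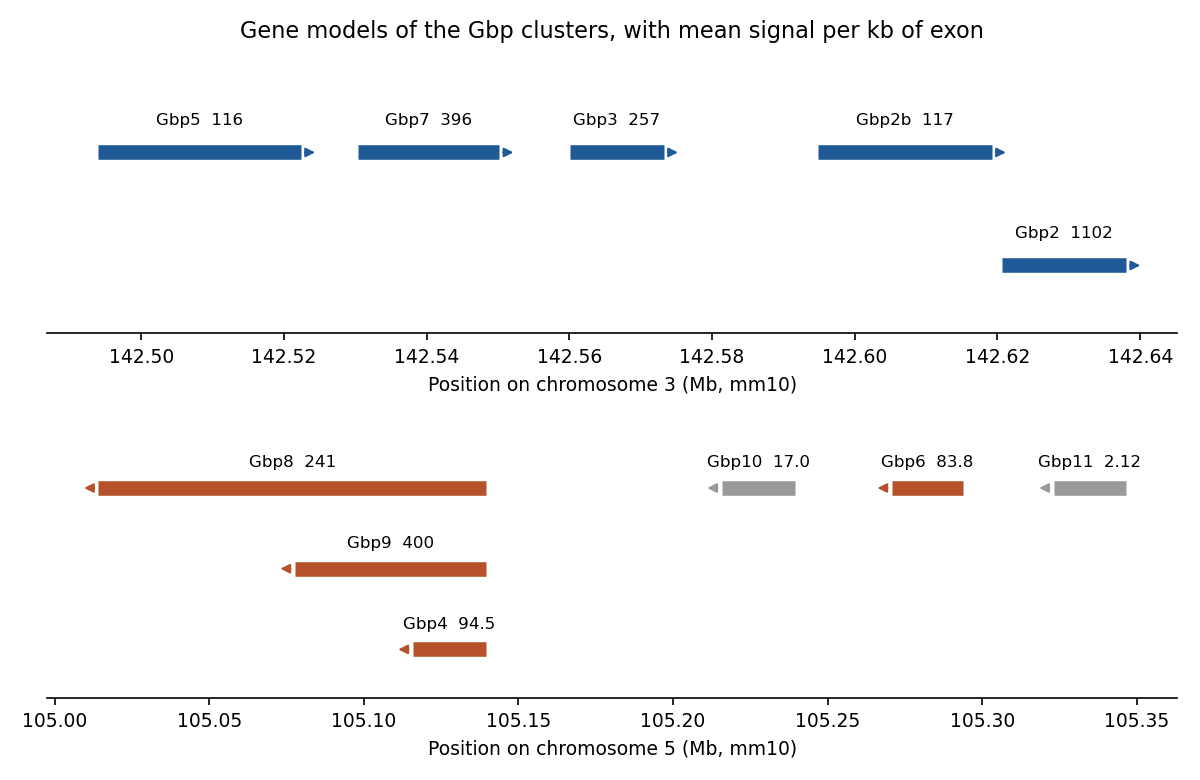
Gene models of the Gbp genes on chromosome 3 (upper) and chromosome 5 (lower), drawn to scale on mm10 with the position in Mb on the horizontal axis, arrows giving the direction of transcription and the number beside each name giving the authors' mean signal per kb of exon. Members are in colour and Gbp10 and Gbp11 in grey, and Gbp2 has the highest level (1102 per kb) while the models of Gbp8, Gbp9 and Gbp4 lie over each other.

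The chromosome 3 genes lie on the plus strand of mm10 in the order Gbp5 (chr3:142493978-142522344), Gbp7 (chr3:142530342-142550149), Gbp3 (chr3:142560026-142573209), Gbp2b (chr3:142594847-142619179) and Gbp2 (chr3:142620602-142638008). The cluster spans 144 kb and none of its 5 gene models overlaps another. Between Gbp2b and Gbp2, the genes with the lowest mean signal and the highest, lie 1422 bases, the shortest gap in the cluster. The longest gap, 21637 bases, separates Gbp3 from Gbp2b. Nearest to the cluster were Pdlim5, an actin-associated protein gene, with 292 per kb on one side, and Kyat3 with 5.34 per kb on the other. Beyond them lay Unc5c, a netrin receptor gene with 0.0195 per kb, and Gtf2b, a general transcription factor gene with 204 per kb. Of these 4 genes, Kyat3 and Unc5c were below the median of the table and Pdlim5 and Gtf2b above it.

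The chromosome 5 genes lie on the minus strand over 279.5 kb. Gbp8 (chr5:105014150-105139540), Gbp9 (chr5:105077630-105139539) and Gbp4 (chr5:105115767-105139586) overlap on the same strand, since some of their annotated transcripts begin at nearly the same upstream position. The model of Gbp9 lies within that of Gbp8 over all its 61910 bases, and Gbp4 shares 23774 bases of its span with Gbp8. Gbp6 (chr5:105270702-105293698) stands 131115 bases away from Gbp4. Nearest outside the cluster were Abcg3, a transporter gene, with 768 per kb, and Lrrc8b, a channel subunit gene, with 28.0 per kb. The next genes outward were Zfp951 with 20.6 per kb and Lrrc8c with 92.0 per kb. All 4 were above the median of the table.

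The table has 2 more genes whose symbol is Gbp and a number, both on chromosome 5, with Gbp10 between Gbp4 and Gbp6 and Gbp11 beyond Gbp6. Gbp10 (chr5:105215699-105239533) had a mean signal of 65.8, or 17.0 per kb, just under the median of the table. Gbp11 (chr5:105323042-105346472), annotated as a polymorphic pseudogene, had a mean signal of 5.71, or 2.12 per kb. Both were below each of the 9 members. Gm43302, a gene model that runs across Gbp10 and Gbp6 on the same strand, had a mean signal of 23.6, or 5.48 per kb.

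The proteins were compared by translating the longest complete coding sequence of each gene in the annotation. Lengths ran from 525 residues for Gbp8 to 638 for Gbp7, and Gbp2 and Gbp2b both have 589. The coding transcript has 11 exons in each gene but Gbp8, where it has 10. Gbp2 and Gbp2b were 76.2% identical, the highest identity on chromosome 3, so the genes with the highest and the lowest mean signal encode the most alike pair of that cluster. Gbp5 was nearest to Gbp2 at 54.7%. Gbp2, Gbp2b and Gbp5 are also the members known to end in a signal for a lipid anchor that ties the protein to membranes.

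Gbp3 and Gbp7 formed a second pair on chromosome 3, with 71.0% identity. They were closer to the chromosome 5 proteins than to the rest of their own cluster. Gbp7 was 64.7% identical to Gbp9 and to Gbp6, but 48.1% to Gbp2. Within chromosome 5 identity ran from 68.9% to 83.7% with a median of 74.8% over 6 pairs, the highest being Gbp9 with Gbp6. Over columns without a gap the highest pair was instead Gbp8 with Gbp6 at 87.6%, with Gbp9 and Gbp6 at 84.8%, and the lowest was Gbp9 with Gbp4 at 79.2% in place of Gbp8 with Gbp4. The median was 49.0% over the 10 pairs within chromosome 3 and 47.1% over the 20 pairs between chromosomes. By sequence the chromosome 5 proteins were thus the more uniform cluster, while the chromosome 3 cluster held proteins of more than 1 kind. Gbp9 and Gbp6 stood at 400.3 and 83.8 per kb.

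**Figure D2:**
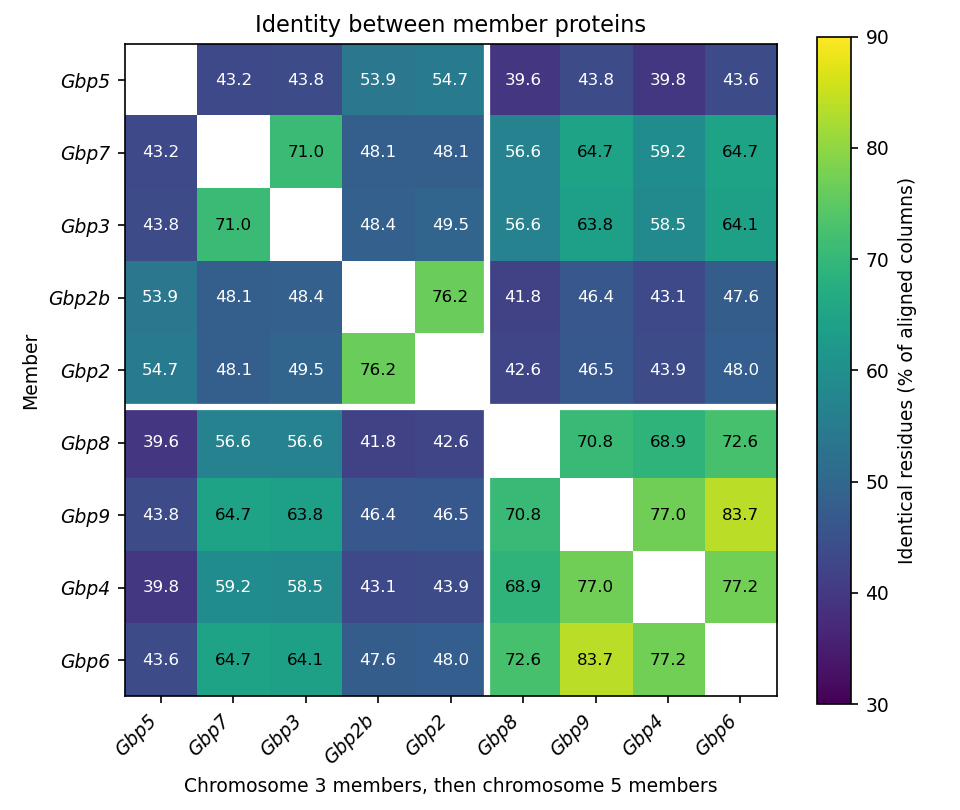
Identity between the proteins of the 9 Gbp members, as the percentage of identical residues over all columns of a global alignment, with the chromosome 3 members first and the chromosome 5 members after the white line. The chromosome 5 block runs from 68.9% to 83.7%, and Gbp3 and Gbp7 are closer to it than Gbp2, Gbp2b and Gbp5 are.

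Alike genes can share reads, and the authors' counting divided reads that matched several genes. Every run of 50 bases in the transcripts of each member was therefore looked up in the transcripts of all other Gbp genes. The median member shared 3.75% of its windows. Gbp2b shared 1.84% of its 2774 windows and Gbp2 2.03% of 2514, in both cases 51 windows that these genes have in common. No window of either was found in any other annotated gene. Most stretches of this length in Gbp2b and Gbp2 thus occur in 1 gene of the annotation.

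Gbp5 shared no window with another Gbp gene, although 1.44% of its windows occur in genes outside the family. Gbp3 shared 3.75% of its windows, all of them with Gbp7. Gbp7 shared 2.26% within the family and 12.7% with any gene, because a processed pseudogene, Gm43802, lies within Gbp7 on the same strand and holds 588 of its windows. That pseudogene had a mean signal of 26.4, against 2222 for Gbp7.

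Within the Gbp family the chromosome 5 members shared more of their windows than the chromosome 3 members. Gbp8 shared 18.1% of its windows with other Gbp genes, Gbp9 8.05% and Gbp4 7.53%. Gbp6 shared 49.9%, most of them with Gbp10, which holds 45.9% of its windows. With Gm43302 included, 70.7% of the windows of Gbp6 occur in another gene. The mean signal of Gbp6, and with it the lowest level of the 9, is thus uncertain to the extent that reads were divided among Gbp6, Gbp10 and Gm43302. Of the 9 genes, Gbp2, Gbp2b and Gbp5 had values that rest most on sequence of their own within the family.

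Promoters from RefSeq (build GRCm38.p6, 250 bases before to 50 after the start of a gene) matched 5 of the 9 members, with 6 entries because Gbp3 has 2 starts. Gbp4, Gbp6, Gbp8 and Gbp9 had no entry. The letters GAAANNGAA, a repeat of the kind bound by interferon regulatory factors (IRF), were searched on both strands, and copies that share bases were each counted. Of the 6 entries 5 had at least 1 IRF pair, 1 for each gene, against 8.56% of 32851 promoters. The entry without one was the downstream start of Gbp3 (chr3:142560106-142560405). A match shows that the letters are present and does not show that a factor binds there.

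The IRF pairs of the 5 genes are given because the motif was found in each of them. GAAANNGAA lies on the minus strand in all 5, so the plus strand printed carries its reverse complement, in capitals, with 10 bases on either side.
Gbp5, chr3:142496760-142496788: cttgtgtagtTTCAATTTCagtttagaga
Gbp7, chr3:142530274-142530302: tgtgtgcagtTTCAGTTTCagttctccat
Gbp3, chr3:142559990-142560024: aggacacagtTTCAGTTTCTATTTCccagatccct
Gbp2b, chr3:142594701-142594729: tacttctaatTTCACTTTCttctttatca
Gbp2, chr3:142620595-142620623: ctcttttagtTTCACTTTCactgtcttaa
The 9 letters in capitals were the same in Gbp2b and Gbp2. In Gbp3 the capitals hold 2 copies that share bases. The motif began 58 bases before the RefSeq start in Gbp2, 52 in Gbp7, 44 in Gbp3, 136 in Gbp2b and 164 in Gbp5. In the annotation used for gene lengths, the motif of Gbp2 falls in the first exon and that of Gbp5 in an intron of a longer transcript, while those of Gbp7, Gbp3 and Gbp2b lie before the gene.

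The upstream sequences of Gbp2b and Gbp2, neighbours with levels that differ 9.43-fold, are given at greater length on the plus strand with the IRF pair in capitals. That of Gbp2 stops 10 bases after the motif.
Gbp2b, chr3:142594597-142594846: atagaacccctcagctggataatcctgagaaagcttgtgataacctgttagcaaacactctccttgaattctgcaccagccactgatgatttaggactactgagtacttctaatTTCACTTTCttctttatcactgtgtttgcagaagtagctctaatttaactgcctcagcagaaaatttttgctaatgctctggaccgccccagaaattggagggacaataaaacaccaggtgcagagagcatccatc
Gbp2, chr3:142620413-142620623: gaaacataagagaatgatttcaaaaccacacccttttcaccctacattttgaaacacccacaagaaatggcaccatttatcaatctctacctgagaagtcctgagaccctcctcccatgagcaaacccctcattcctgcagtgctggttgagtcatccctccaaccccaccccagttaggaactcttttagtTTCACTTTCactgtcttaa

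The levels of the Gbp genes were set beside 37 genes of interferon signalling and of related defence, of which 36 were in the table. The gene for interferon-β, Ifnb1, was the one without a row. Per kb of exon, 34 of the 36 genes were above the median of the table and 4 were above Gbp2, with a median of 425 per kb. Without division by length more were above Gbp2 (mean signal 2773), such as Jak2 (3385) and Gvin1 (7555), but most of the 36 stayed below. The ligand Ifng stood at 5.02 per kb, at percentile 36.9 of the table.

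The receptor genes were among the higher ones. Ifngr1 stood at 1678 per kb and Ifngr2 at 935.8, the chains of the interferon-γ receptor, while Ifnar1 and Ifnar2, the chains of the type I receptor, stood at 575.2 and 918.1. Of the kinases, Jak1 was at 1869 per kb, Jak2 at 673 and Tyk2 at 261.8. Of the transcription factors, Irf1 reached 1762 per kb, while Stat2, Irf2, Irf8 and Irf9 lay lower, down to 382 for Irf2. All 12 genes given for these 3 groups were above Gbp8, the median Gbp member. Per kb of exon, 3 of them, Ifngr1, Jak1 and Irf1, were above Gbp2. Without division by length only Tyk2 (mean signal 1797) and Stat2 (2434) of the 12 were below Gbp2 (2773). Irf2 (2825) was then close to Gbp2, and all 4 receptor genes were above it.

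The inhibitors spread widely. Socs3, which restrains signalling from cytokine receptors such as that for granulocyte colony-stimulating factor, stood at 1874 per kb. By this level Socs3 and Jak1 (1869 per kb) were the highest of the 36 genes and too close to be ordered. Without division by length Jak1 (mean signal 13509) was above Socs3 (5419), as were Gvin1 (7555) and Irf1 (7006). Socs1, which binds Jak kinases and restrains interferon-γ signalling, stood at 58.8 per kb, below each of the 9 Gbp genes. Usp18, an inhibitor of type I interferon signalling, was at 250.4 per kb.

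The immunity-related GTPases, a family of smaller interferon-induced GTPases that act on the same vacuoles as Gbp proteins, had a median of 398 per kb over 8 genes. Igtp and Irgm2, whose gene models overlap on chromosome 11, were the highest at 996.1 and 847.7 per kb, under Gbp2. Without division by length Irgm2 (mean signal 3128) was above Gbp2 (2773). Of the 8 genes, 6 were above Gbp8 per kb of exon. Among other large interferon-induced GTPases, Gvin1 stood at 839 per kb, Mx1 at 90.1 and Mx2 at 24.6. The atlastins fuse membranes of the endoplasmic reticulum and are relatives of the Gbp proteins. Atl3 stood at 146 per kb, above Mx1 and Mx2, Atl2 at 55.8 and Atl1 at 1.32. All 3 were below Gbp8 per kb of exon. Without division by length Atl3 (mean signal 1475) was above Gbp8 (830.1).

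Inflammasome genes through which Gbp proteins act in sensing cytosolic bacteria were all below Gbp2 per kb of exon. By this level they were also above Gbp8 (241 per kb), except that Aim2 was too close to it to be ordered. Without division by length Nlrp3 (mean signal 3437) was above Gbp2 (2773). Casp1, the inflammasome protease, was at 901.8 per kb, Gsdmd, which forms the membrane pore, at 849.4 and Nlrp3 at 847.2. Casp4, the sensor of bacterial lipopolysaccharide, was at 308.9, the adaptor Pycard at 257.4 and the DNA sensor Aim2 at 244.5 per kb.

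**Figure D3:**
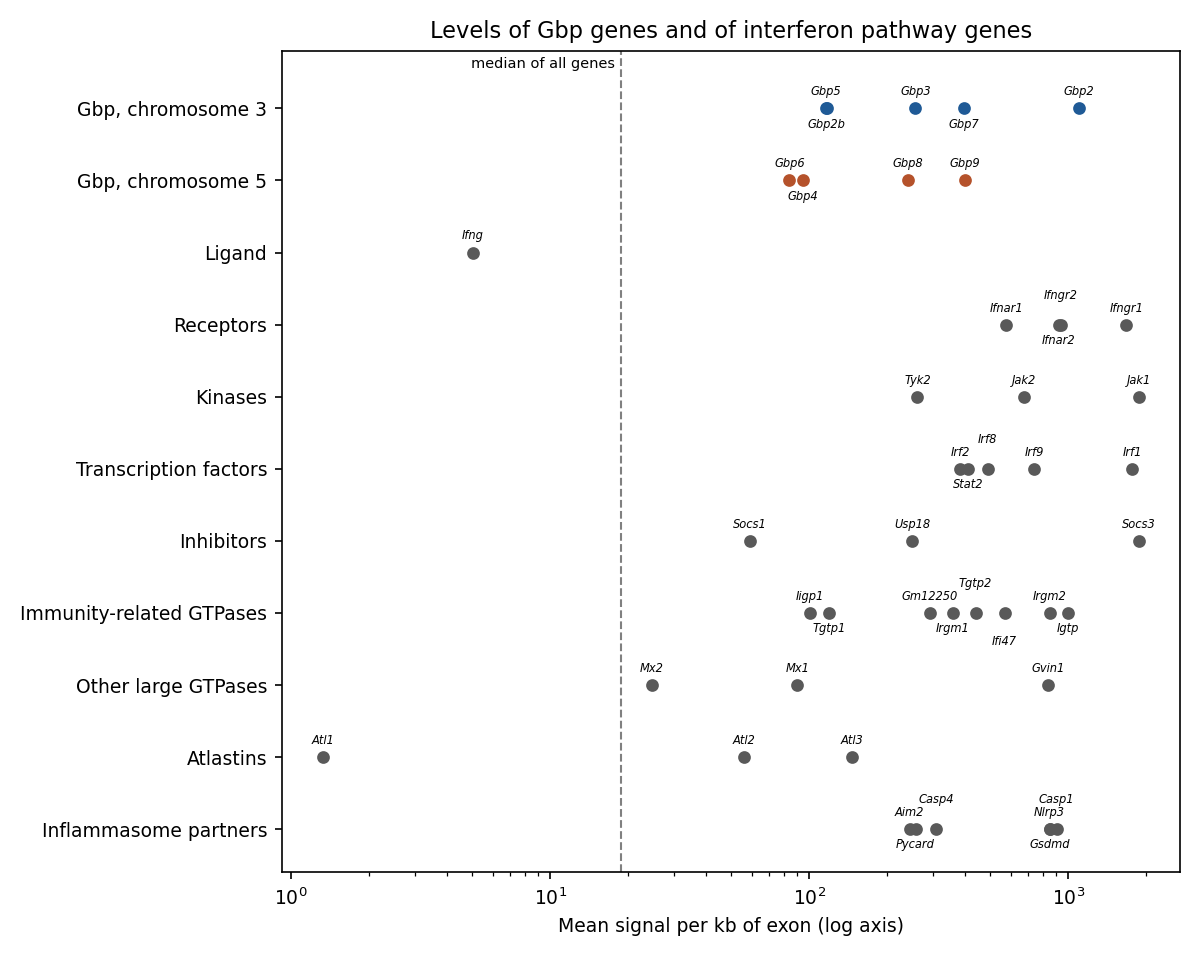
Authors' mean signal per kb of exon (log axis) for the 9 Gbp members and for the 36 listed genes of interferon signalling and related defence in the table, with 1 point per gene and 1 line per group, and the median of all genes (18.8) dashed. All 9 Gbp genes lie to the right of that median, and Ifng (5.02) and Atl1 (1.32) are the listed genes to its left.

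Markers were read to see which cells the mean stands for. All 7 neutrophil genes were above Gbp2, with a median of 34070 per kb, and S100a9 and S100a8 held ranks 1 and 2 of the table. Ly6g stood at 8337 per kb. All 7 monocyte genes were above the median of the table, with a median of 1046 per kb, and 3 of them were above Gbp2. Ly6c2 stood at 5260 per kb and Itgam, the gene of CD11b and thus a marker of both subsets, at 10760. F13a1 was at 400.6, Ccr2 at 370.3 and Cx3cr1 at 156.6 per kb. Because the samples behind the mean are not stated, these values do not show what either subset held on its own.

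Genes listed as markers of other spleen cells were present as well, and whether the sorted cells themselves expressed them was not tested. The 5 macrophage genes had a median of 9032 per kb, led by Hmox1 at 12182 and C1qb at 9704. The 5 B-cell genes had a median of 1347 per kb, led by Cd79a at 4065. The T and NK cell genes had a lower median, 168 per kb over 6 genes, with Nkg7 the highest at 519.2 per kb. The 4 dendritic-cell genes had a median of 12.2 per kb, and 1 of them was above the median of the table. None of the markers was at 0. The cells had been sorted by flow cytometry or with Ly6G and Ly6C magnetic beads, and which of these served for the sequenced samples is not given in the sources used here. The part of macrophages, B cells, T and NK cells and dendritic cells in the Gbp levels was not tested.

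Lmna, the deleted gene, had a mean signal of 79.5, or 13.6 per kb, at percentile 46.7. Each of the 9 Gbp genes stood higher. As a mean over samples this value does not check the genotype labels. Lmna lies on the minus strand of chromosome 3 (chr3:88480147-88509956), the chromosome of the Gbp2b cluster.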

How the data were processed

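RNA of 8 samples was sequenced. The authors used Cutadapt 1.14 for trimming, STAR 2.5.2b for alignment to mm10, RSEM 1.3.0 with GENCODE M12 for gene counts and DESeq2 1.20.0 for normalization and testing. The deposited signal is the mean over samples of counts divided by size factors, 1 value per gene. The deposited table otherwise holds the authors' comparison of LmnaMyeKO with wt CD11b+Ly6C+ cells (fold changes, their errors, test scores and p-values), which was not used. Values per sample were not analysed here, so the planned count test was not run and precision is unknown.

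Gene positions, types and lengths came from GENCODE M21 on the same build, which holds 23004 of the 23084 identifiers and the same version of all 9 members. For 28 symbols on more than 1 line, Itgam among them, the line with the highest signal was used. The signal was divided by the summed exon length. Longest complete coding sequences were translated and aligned globally (Biopython 1.88, BLOSUM62, gap penalties 11 and 1). Windows of 50 bases were matched on both strands. Functions were tested on made sequences. Python 3.11.15 was used.

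The members and gene lists were chosen with earlier results of these data known. The text names all members, other numbered Gbp genes, Lmna, the 2 nearest protein-coding genes on each side of a cluster, and genes of the lists, of which 1 is not reported here, nor is 1 planned motif, both left out whatever their values. Gm43302 and Gm43802 were named after their overlaps were seen. Alternatives covered gene length, reference genes, cluster summary, gap columns, window length and promoter window.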

Additional observations from a re-analysis of the deposited data

How the results depend on the processing

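No paired analysis was possible because only a mean over samples was used for each gene. For the same reason edgeR, the other count test, no filter and leaving out each replicate were not run, and how far single samples set these levels is unknown. None of the values below has an error.

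Chromosome 3 stayed above chromosome 5 in summed level under each alternative run. The ratio was 2.43, and became 1.08 without Gbp2 alone (chosen after seeing the data), 2.11 without the highest gene of each cluster, 1.53 with the median member in place of the sum, 2.29 with the longest transcript as the length, 2.38 with the median transcript and 1.69 without division by length. The highest member stood 13.1 times above the lowest, and 9.43 times with the longest transcript, 14.1 times with the median transcript and 8.41 times without division by length. Gbp2 stood 2.75 times above the next member, and 2.68, 1.85 and 1.25 times in the same order of settings. The percentile of the median member, 82.1, became 75.2 among 15697 protein-coding genes and 71.2 among 14286 genes with a mean signal above 10, which counts fewer low genes. Over columns without a gap, median identity became 50.5% between clusters, 52.6% within chromosome 3 and 83.6% within chromosome 5. The median share of windows held by other Gbp genes, 3.75%, became 2.06% with windows of 75 bases and 0.694% with 100, as longer windows match less often. The count of members with the IRF pair in a promoter (5) was the same before the start alone. Of 20 alternatives, 6 moved a value by over 1.5 times.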
